A study of Mus musculus with 24 samples.

Results

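Mature B cell markers are 9 genes that ileal tissue expresses where it holds resting, antigen-responsive B cells: Cd79b, Cr2, Cd72, Bank1, Pax5, Ms4a1, Cd37, Fcmr and Tnfrsf13c. They were fixed by name, and each was read from the probe set of the array annotated to its symbol. All 9 had a probe set of their own, 1 each, among 18820 genes that did. RNA of the terminal ileum was hybridized to Affymetrix Mouse Gene 1.1 ST microarrays for each of 24 male C57BL/6OlaHsd mice of 8 weeks. Of these, 12 were conventional, free of specific pathogens and bought from Envigo, and 12 were germ-free and came from the colony of the Radboud University. Within each status, 4 mice received water by gavage, 4 received FOS (short-chain β2→1-fructan) and 4 received IN (inulin, the long-chain β2→1-fructan). Each fructan was given at 10 mg once a day for 5 days, and all mice ate the diet D12450B. Both fructans are chains of fructose that differ in their degree of polymerization. For the germ-free mice FOS was sterilized by filtration and IN by irradiation, which broke down some of its longer chains. Germ-free status and the source of the animals cannot be told apart in this design.

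B cells recognise antigen through the B cell receptor, a membrane immunoglobulin that signals through a dimer of Cd79a and Cd79b. In the ileum most of them lie in Peyer's patches and in small isolated follicles, from which some leave as plasma cells that secrete immunoglobulin A. Differentiation to plasma cells switches off Pax5 and much of the mature B cell programme. Mice without a microbiota are known for small Peyer's patches and few plasma cells in the lamina propria. A full-thickness piece of ileum holds a varying amount of follicle, so values for B cell genes depend on what the piece contained.

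The arrays were alike in scale, with medians between 4.92 and 4.98 on the log2 scale, and arrays of the same group correlated at 0.979 to 0.99 over all probe sets. The B cell markers were dim in this tissue: 3 of the 9 lay above the median gene, and the share of genes at or below a marker ran from 11.2% for Cr2 to 53.0% for Cd72. Replicates 3 and 4 of the germ-free IN group stood apart in these genes. They exceeded all 22 other mice in Ms4a1, Cr2, Pax5 and Tnfrsf13c, which is 4 of 9 markers (44.4%), against 257 of 18820 genes (1.37%). These 2 mice were picked by their values in the markers, so the shares describe that choice and test nothing. Counts of calls that use the group, and differences of the markers called in them, are therefore given with and without these 2 mice. This omission was chosen after the data were seen. It was bound to lower the germ-free values of markers that were high in these mice. Group means and values of list genes are given with all mice. Marker lists of other tissues also differed by status. The mean level of 6 adipocyte genes lay between 5.44 and 6.82 in conventional mice and between 6.39 and 8.34 in germ-free mice, and that of 8 smooth muscle genes between 9.56 and 9.80 and between 8.65 and 9.50. Ileal enterocyte genes ranged from 10.7 to 10.9 and from 10.7 to 11.3. The part of tissue composition in the differences below was not tested.

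Promoter sequences are shown for the 2 markers that were lower in germ-free mice under every treatment, Cd37 and Cd72, and for the BAFF receptor gene Tnfrsf13c. Each run holds the 250 bases before a RefSeq transcript start in GRCm38.p6, written 5′ to 3′ on the strand of the gene. For Cd37 and Cd72 this start is not the outermost one, and the run lies within the bounds of the gene. Capitals mark matches to the ETS core AGGAAGT, which PU.1 and its relatives bind, or to the E-box CAGGTG, which E proteins bind, on either strand.
Cd37, chr7:45238840-45239089, minus strand: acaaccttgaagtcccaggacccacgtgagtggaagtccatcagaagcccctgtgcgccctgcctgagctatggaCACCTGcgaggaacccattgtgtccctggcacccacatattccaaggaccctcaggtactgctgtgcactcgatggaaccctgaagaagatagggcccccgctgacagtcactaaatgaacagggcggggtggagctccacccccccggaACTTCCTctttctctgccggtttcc
Cd72, chr4:43454627-43454876, minus strand: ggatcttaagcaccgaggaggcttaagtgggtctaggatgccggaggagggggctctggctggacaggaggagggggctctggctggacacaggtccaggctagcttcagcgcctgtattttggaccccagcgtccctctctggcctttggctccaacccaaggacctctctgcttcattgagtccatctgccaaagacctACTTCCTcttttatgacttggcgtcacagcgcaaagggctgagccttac
Tnfrsf13c, chr15:82224381-82224630, minus strand: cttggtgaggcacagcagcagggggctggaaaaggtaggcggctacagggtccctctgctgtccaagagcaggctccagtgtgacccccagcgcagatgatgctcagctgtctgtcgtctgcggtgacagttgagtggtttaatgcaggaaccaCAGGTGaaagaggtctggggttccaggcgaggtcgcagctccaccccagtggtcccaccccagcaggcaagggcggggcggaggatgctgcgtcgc
Among the 7 markers with a sequence in the table, AGGAAGT occurred in Cd37 at position -25 and in Cd72 at position -49, counted from the transcript start. It occurred in 7.69% of all 32851 promoters of that length. CAGGTG occurred in Cr2, Bank1, Cd37 and Tnfrsf13c and in 17.2% of all promoters. The EBF palindrome CCCNNGGG was present in Bank1 alone among the 7, and in 11.8% of all. The octamer ATGCAAAT (1.6% of all) matched in none of the 7. No match overlapped another, and these matches describe letters in a window and no binding was measured. The array values of Cd37 and Cd72, given next, were the most clearly separated by status.

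Germ-free mice had lower expression of Cd72, Cd37 and Cd79b than conventional mice when the difference was averaged over water, FOS and IN. Of the 9 markers these 3 were called lower and 0 higher, where a call means a fold change above 1.3 together with a limma p below 0.01 before adjustment, the rule of the study. In the same comparison 5.22% of all 18820 genes were called lower, 2.99% higher and 8.2% in either direction. The median difference of the 9 markers was -0.18, against 0.03 for all genes, and without germ-free IN replicates 3 and 4 it was -0.28, against 0.02. With all 12 mice of each status pooled, 0 of 9 markers had ranges that did not overlap, which was so downward for 2.44% of all genes. Without the 2 mice this held for Cd79b and Cd37, 2 of 9, and for 2.75% of all genes. In bulk tissue, fewer B cells and less RNA of these genes per cell cannot be told apart.

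Cd72 encodes an inhibitory coreceptor of the B cell receptor (probe set 10512470, chr4:43447724-43455102). On water its log2 values were 6.09, 6.30, 6.24 and 5.96 in the conventional mice and 5.21, 5.37, 5.58 and 5.40 in the germ-free mice. Over all treatments the 12 conventional mice ranged from 5.81 to 6.30 with a median of 6.16, and the 12 germ-free mice from 5.09 to 5.84 with a median of 5.41. The ranges met only at the lowest conventional mouse, which had received FOS and lay just under the highest germ-free mouse, also given FOS. The averaged difference was -0.67 (SE 0.073), a 1.59-fold lower level, with a Benjamini-Hochberg adjusted p of 4.84e-08 by limma. An exact permutation test of mice within treatments gave a two-sided p of 1.17e-05. Without germ-free IN replicates 3 and 4 the difference was -0.72.

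Cd37 encodes a tetraspanin of B cells that other leukocytes also carry (probe set 10563178, chr7:45233632-45239340). On water it stood at 6.19, 6.03, 6.14 and 5.92 in conventional mice and at 5.04, 5.03, 5.38 and 5.47 in germ-free mice. Every germ-free mouse on water was thus below every conventional one. Over all treatments the conventional range was 5.81 to 6.33 (median 6.10) and the germ-free range 5.03 to 6.06 (median 5.37). The averaged difference was -0.66 (SE 0.082), with an adjusted p of 3.65e-07, and the exact permutation p was 5.83e-06, the smallest that these assignments can give. Without replicates 3 and 4 of the germ-free IN group the highest germ-free value was 5.67, below all conventional mice, and the difference was -0.76.

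Cd79b encodes a signalling subunit of the B cell receptor (probe set 10392142, chr11:106311341-106314562). Its values on water were 5.42, 5.00, 5.41 and 4.92 in conventional mice and 4.22, 4.19, 4.57 and 4.50 in germ-free mice. Conventional mice ranged from 4.78 to 5.42 over all treatments (median 4.96), and germ-free mice from 4.19 to 5.01 (median 4.52). The overlap came from the germ-free IN mice 3 and 4, without which the highest germ-free value was 4.65. The averaged difference was -0.51 (SE 0.084; adjusted p = 2.55e-05 by limma), and the exact permutation p was 7.58e-05. Without those 2 mice it was -0.57.

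Tnfrsf13c encodes the receptor through which BAFF keeps mature B cells alive (probe set 10430818, chr15:82221742-82224380). It differed by -0.31 (SE 0.12) between germ-free and conventional mice, short of the call at an unadjusted p of 0.0141 and an adjusted p of 0.0427. Without the germ-free IN mice 3 and 4 the difference was -0.48 (SE 0.090; adjusted p = 0.000204 by limma), and with that omission 4 of 9 markers were called lower, against 5.36% of all genes. Leaving out replicate 3 alone also brought the call, at -0.38.

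The other 5 markers did not pass the test. Bank1, which encodes an adaptor of B cell receptor signalling (probe set 10502335, chr3:136053363-136326141), differed by -0.18 with a 95% interval from -0.37 to 0.01. The interval for Ms4a1, the gene of the CD20 antigen (probe set 10466172, chr19:11249679-11266149), ran from -0.32 to 0.23 around -0.04. Fcmr, the gene of the IgM Fc receptor (probe set 10349593, chr1:130865777-130880790), gave -0.03 (-0.21 to 0.16). Cr2 encodes the complement receptor of the B cell coreceptor and is also expressed by follicular dendritic cells (probe set 10361292, chr1:195136811-195176880), and its difference was 0.05 (-0.15 to 0.25). Pax5, the transcription factor that holds B cell identity (probe set 10512669, chr4:44524748-44710694), gave 0.08 (-0.07 to 0.23). The signs of Cr2 and Pax5 turned without the germ-free IN mice 3 and 4, to -0.12 and -0.01. With that omission Bank1 stood at -0.28 (SE 0.083; adjusted p = 0.01 by limma), at a fold change of 1.22 and so still short of the call. Ms4a1 stood at -0.26 (adjusted p = 0.0423 by limma) and Fcmr at -0.11 (adjusted p = 0.315). Because the omitted mice were picked for high marker values, these lower differences were bound to follow, and their p-values test nothing. No direction is given for these 5 genes with all mice.

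**Figure D1:**
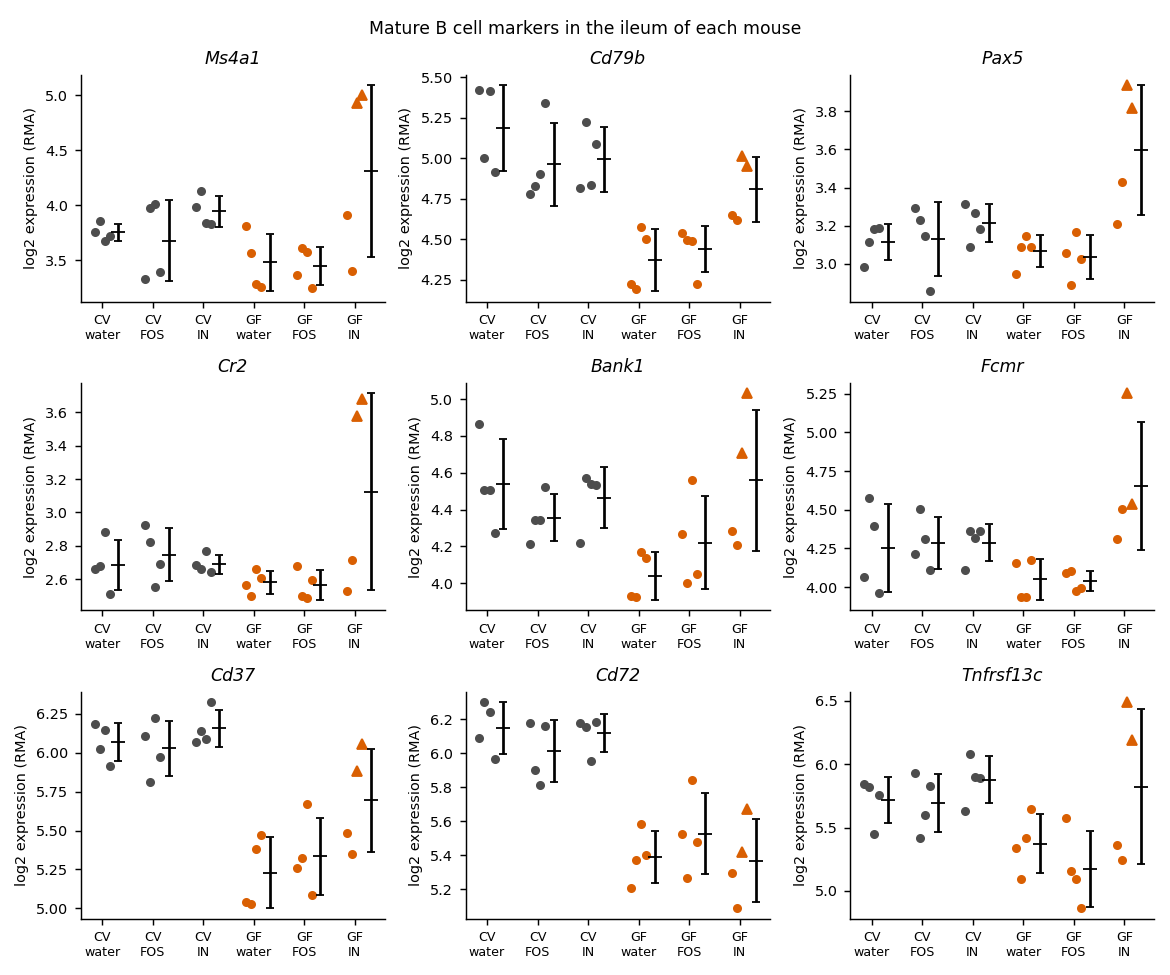
Log2 expression (RMA) of the 9 mature B cell markers in each of 24 mice, by group on the horizontal axis (CV, conventional; GF, germ-free), with bars for the mean ± SD of 4 mice. In Cd72, Cd37 and Cd79b the germ-free mice lie low, and germ-free IN replicates 3 and 4 (triangles) lie above all other mice in Ms4a1, Cr2, Pax5 and Tnfrsf13c.

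By treatment, Cd37 and Cd72 were lower in germ-free mice in each of the 3 comparisons, Cd79b on water and after FOS, and Bank1 on water. On water 4 of 9 markers were called lower, against 5.96% of all genes called lower, 2.77% called higher and 8.74% called in either direction. Cd37 differed by -0.84 (SE 0.14), Cd79b by -0.81 (SE 0.15) and Cd72 by -0.76 (SE 0.13), and each was lower in 4 of 4 germ-free mice than in any conventional mouse. Bank1 had values of 4.87, 4.51, 4.51 and 4.27 in conventional mice and 3.93, 3.93, 4.17 and 4.14 in germ-free mice. The groups did not overlap in these 4 markers, which was so downward for 9.37% of all genes on water. Its difference of -0.50 (SE 0.16, adjusted p = 0.0345 by limma) lost the call without conventional water replicate 1 (-0.39), germ-free water replicate 1 (-0.46) or replicate 2 (-0.46).

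After FOS, Cd37 (-0.69), Cd79b (-0.53) and Cd72 (-0.49) were called lower in germ-free mice, 3 of 9 markers against 4.47% of all genes called lower, 4.29% called higher and 8.76% called in either direction. These compare 4 conventional and 4 germ-free mice that had both received FOS. Cd79b was at 4.78, 4.83, 4.90 and 5.34 in conventional mice and at 4.54, 4.50, 4.49 and 4.23 in germ-free mice. The groups did not overlap in Cd79b, Cd37 and Fcmr, which was so downward for 7.86% of all genes. The Cd79b call ended without conventional FOS replicate 4, at -0.40. Tnfrsf13c differed by -0.52 at an unadjusted p of 0.0154 and was called without conventional FOS replicate 2 (-0.61) or germ-free FOS replicate 1 (-0.66) or in a fit of these 8 arrays alone.

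After IN, Cd72 (-0.75) and Cd37 (-0.46) were called lower in germ-free mice and Pax5 (0.38) higher, against 6.26% of all genes called lower, 3.43% called higher and 9.69% called in either direction. Cd72 was at 6.18, 6.16, 5.95 and 6.19 in conventional mice and at 5.30, 5.09, 5.42 and 5.67 in germ-free mice. The groups did not overlap in Cd72 and Cd37, which was so downward for 8.88% of all genes. For Cd72 the germ-free IN mice 3 and 4 were not above the rest of the series, and without them its difference was -0.93. Cd37 lost its call without conventional IN replicate 4 (-0.40), germ-free IN replicate 1 (-0.39) or replicate 2 (-0.35), and 1 marker in all was called without conventional IN replicate 4, against 9.26% of all genes. The Pax5 call ended without conventional IN replicate 2 (0.34) or 4 (0.37) and without germ-free IN replicate 3 (0.27) or 4 (0.31), with cyclic loess (0.34) and in a fit of these 8 arrays alone. Cd79b, at -0.18 with all mice, stood at -0.36 without germ-free IN replicates 3 and 4 and was not called. With both mice left out, Cd37 (-0.74), Cd72 (-0.93) and Tnfrsf13c (-0.57) were called lower and no marker higher, against 5.74% of all genes called lower and 2.78% called higher. Pax5 then stood at 0.10. As the 2 mice were picked for high marker values, lower differences were bound to follow. Single omissions also brought calls of higher expression in germ-free mice, with 3.5% of all genes called higher without germ-free IN replicate 1 and 4.09% without replicate 2. These were Cr2 without germ-free IN replicate 1 (0.63) or 2 (0.57), Fcmr without replicate 1 (0.48) and Ms4a1 without replicate 2 (0.67).

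**Figure D2:**
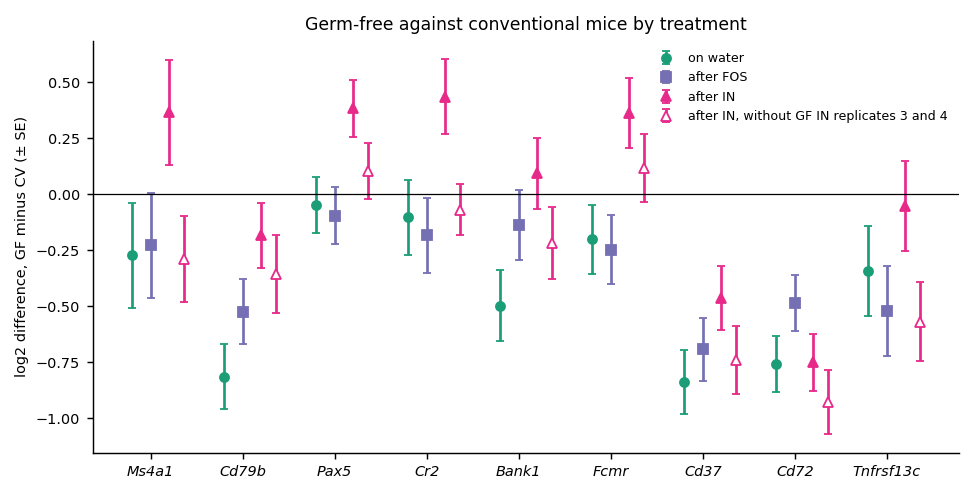
Log2 difference between germ-free (GF) and conventional (CV) mice for each marker, with SE of the fit, on water, after FOS and after IN. Cd37 and Cd72 lie below 0 in every comparison, and open triangles show that leaving out germ-free IN replicates 3 and 4 moves the IN difference of each marker down.

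In Cd37, Cd72 and Cd79b each conventional group mean was above each germ-free group mean, which was not so in the other 6 markers. For Cd37 the conventional groups led, at 6.16 ± 0.12 after IN, 6.07 ± 0.12 on water and 6.03 ± 0.18 after FOS (SD, n = 4 each), and these neighbours did not differ beyond their spread. The germ-free groups followed at 5.69 ± 0.33 after IN, 5.33 ± 0.25 after FOS and 5.23 ± 0.23 on water. For Cd72 the step from the lowest conventional group (6.01 ± 0.18, FOS) to the highest germ-free group (5.53 ± 0.24, FOS) was the only one larger than the spread of its groups. Cd79b placed the germ-free IN group (4.81 ± 0.20) just below conventional FOS (4.96 ± 0.26), and the next step, to germ-free FOS (4.44 ± 0.14), exceeded the spread. Ms4a1, Pax5, Cr2, Bank1 and Fcmr had their highest mean in the germ-free IN group. For Cr2 that mean was 3.13 ± 0.59, and for Ms4a1 it was 4.31 ± 0.78, with SDs set by the distance between its mice.

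Fructan left the markers without a call in conventional mice. For FOS against water 0 of 9 were called, against 0.409% of all genes, and the largest difference was that of Cd79b, -0.22 with a 95% interval from -0.52 to 0.07. For IN against water 0 of 9 were called, against 0.313% of all genes, with differences from -0.19 for Cd79b to 0.19 for Ms4a1. The 2 fructans, given at the same dose and for the same time, differ in chain length. Between them 0 of 9 markers were called in conventional mice, against 0.213% of all genes, and all 9 intervals held 0. The interval was -0.15 to 0.37 for Cd72, -0.17 to 0.42 for Cd37 and -0.27 to 0.33 for Cd79b, and the widest was -0.22 to 0.75 for Ms4a1. At an unadjusted p under 0.05 limma likewise gave none of the 9 in any of these 3 comparisons. Of all genes it gave 5.22% for FOS against water, 5.67% for IN against water and 3.63% for IN against FOS.

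In germ-free mice FOS also gave 0 of 9 calls against water, where 0.579% of all genes were called. No marker had an unadjusted p under 0.05 by limma, against 5.71% of all genes. The differences ran from -0.20 for Tnfrsf13c to 0.18 for Bank1. The change after FOS did not pass a test of difference between germ-free and conventional mice for any marker. Here 0 of 9 were called, against 0.707% of all genes. None had an unadjusted p under 0.05 by limma, against 5.45% of all genes.

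IN against water in germ-free mice gave higher values for 7 of 9 markers, against 0.42% of all genes called higher and 0.855% called in either direction. No gene in this comparison passed a Benjamini-Hochberg adjusted p under 0.05 in limma, while 1644 had an unadjusted p under 0.05. Ms4a1 was at 3.81, 3.56, 3.28 and 3.26 on water and at 3.91, 3.40, 4.93 and 5.00 after IN, a difference of 0.83 (SE 0.24, adjusted p = 0.355 by limma). The first 2 IN mice lay near the water mice and the other 2 far above them, and the exact permutation p was 0.114. Cr2 showed the same division, with 2.56, 2.50, 2.66 and 2.60 on water and 2.53, 2.71, 3.58 and 3.68 after IN. Its difference was 0.54 (SE 0.17), with an exact permutation p of 0.143.

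Of the remaining calls, 4 had groups that did not overlap, which was so upward for 1.51% of all genes. Pax5 was at 2.95, 3.09, 3.14 and 3.09 on water and at 3.21, 3.43, 3.94 and 3.82 after IN, a difference of 0.53 (SE 0.13). Fcmr moved from 4.16, 3.93, 3.94 and 4.17 to 4.31, 4.50, 5.25 and 4.54, a difference of 0.60 (SE 0.15). In both genes all IN mice were above all water mice, though replicates 1 and 2 by less. Cd79b, at 4.65, 4.62, 5.01 and 4.95 after IN, differed by 0.44 (SE 0.15). Bank1, at 4.28, 4.21, 4.71 and 5.03, differed by 0.52 (SE 0.16). For each of these 4 genes the exact permutation p was 0.0286, the smallest that 4 mice against 4 allow. Cd37 differed by 0.46 (SE 0.14) with an exact permutation p of 0.114, Tnfrsf13c by 0.45 without a call (p = 0.034 by limma) and Cd72 by -0.02.

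These calls were not kept without germ-free IN replicates 3 and 4 together. The 2 mice were picked for high values in these markers, and their omission leaves 2 in the group. Lower differences and fewer calls were therefore bound to follow. Without both mice 0 of 9 markers were called, against 1.02% of all genes. Tnfrsf13c stood at -0.07 and Cd72 at -0.20. The differences of the other markers were 0.18 for Ms4a1, 0.04 for Cr2, 0.25 for Pax5, 0.36 for Fcmr, 0.26 for Cd79b, 0.21 for Bank1 and 0.19 for Cd37. The largest of them, that of Fcmr, had a 95% interval from 0.04 to 0.67 and was the 1 marker with an unadjusted p under 0.05 by limma, against 8.1% of all genes. Without replicate 3 alone, or without replicate 4 alone, 2 of 9 were called, Pax5 and Fcmr, against 0.792% and 1.03% of all genes. The calls of Cd79b and Cd37 also ended without germ-free water replicate 1 (0.39 and 0.40) or 2 (0.38 and 0.40).

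**Figure D3:**
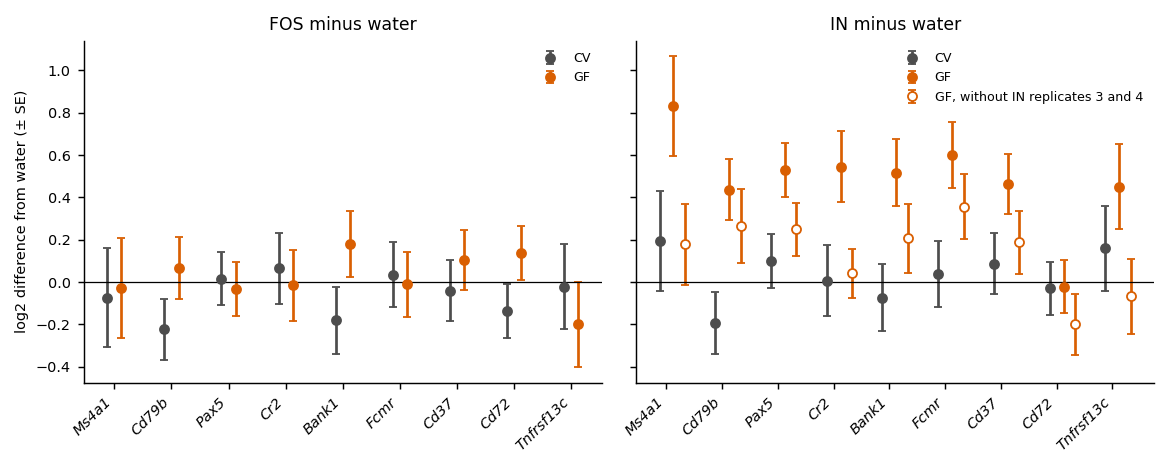
Log2 difference from water with SE for each marker after FOS (left) and IN (right) in conventional (CV) and germ-free (GF) mice. Germ-free IN differences stand above 0 for 8 of 9 markers with all mice, and open circles show them without IN replicates 3 and 4.

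Between the fructans in germ-free mice, IN gave higher values than FOS for 5 of 9 markers, against 0.739% of all genes called higher and 1.41% called in either direction, and no gene passed the adjusted threshold in limma, while 2392 had an unadjusted p under 0.05. The differences were 0.86 for Ms4a1 (95% interval 0.38 to 1.34), 0.65 for Tnfrsf13c (0.24 to 1.06), 0.61 for Fcmr (0.29 to 0.93), 0.56 for Pax5 (0.30 to 0.82) and 0.56 for Cr2 (0.22 to 0.90). This compares filtered FOS with irradiated IN. The groups did not overlap in Cd79b, Pax5 and Fcmr, which was so upward for 2.16% of all genes. Cd72, at -0.16 (-0.42 to 0.10), was not called. Without IN replicates 3 and 4, 0 of 9 were called, against 1.98% of all genes, and the differences were 0.21 for Ms4a1, 0.13 for Tnfrsf13c and 0.06 for Cr2. At an unadjusted p under 0.05 limma then gave 3 of 9, Fcmr (0.37), Pax5 (0.28) and Cd72 (-0.34), against 11.7% of all genes. Without replicate 3 alone, or without replicate 4 alone, Pax5 and Fcmr were called, against 1.42% and 1.88% of all genes. Tnfrsf13c also lost its call without germ-free FOS replicate 4, at 0.55.

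The change after IN differed between germ-free and conventional mice for 1 of 9 markers, against 0.531% of all genes. This was Cd79b, 0.44 in germ-free and -0.19 in conventional mice, a difference of 0.63 (SE 0.21) with a limma adjusted p of 1. The call ended without any one of 8 mice, among them germ-free IN replicate 3 (0.56) and 4 (0.58), and without both it stood at 0.46, with 0 of 9 markers called against 0.606% of all genes. The others were conventional water replicates 1 (0.55) and 3 (0.56), conventional IN replicates 1 (0.57) and 3 (0.58) and germ-free water replicates 1 (0.58) and 2 (0.57). Leaving out a mouse could also raise the number of markers called, to 3 without conventional water replicate 4, 5 without germ-free IN replicate 1 and 4 without germ-free IN replicate 2. Of all genes 0.59%, 0.781% and 0.553% were called in these fits.

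Gene lists of other cells showed which genes were also high in germ-free IN replicates 3 and 4. The mean of the 9 markers was 4.34, 4.28, 5.02 and 4.99 in IN mice 1 to 4, and did not exceed 4.71 in any conventional mouse. The mean of 18 further mature B cell genes was 4.92, 4.78, 5.10 and 5.15, where conventional mice ranged from 5.13 to 5.29. That of 6 follicular dendritic cell and follicle genes was 5.42, 5.17, 5.74 and 5.66. In both lists replicates 3 and 4 lay above every other germ-free mouse, as in the mean of the markers. T cell genes (12) stood at 3.99, 4.10, 4.19 and 4.17, and plasma cell genes (9) at 5.66, 5.41, 5.72 and 5.65. In both of these lists replicates 3 and 4 lay within the range of the other germ-free mice. The same held for BAFF and APRIL signalling genes (8), at 5.92, 5.88, 5.90 and 5.87. Adipocyte genes were at 8.03, 7.17, 8.33 and 6.68, and so did not divide these mice in the same way. The part of the amount of follicle in each piece was not tested. The markers and the lists were read from the same arrays.

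**Figure D4:**
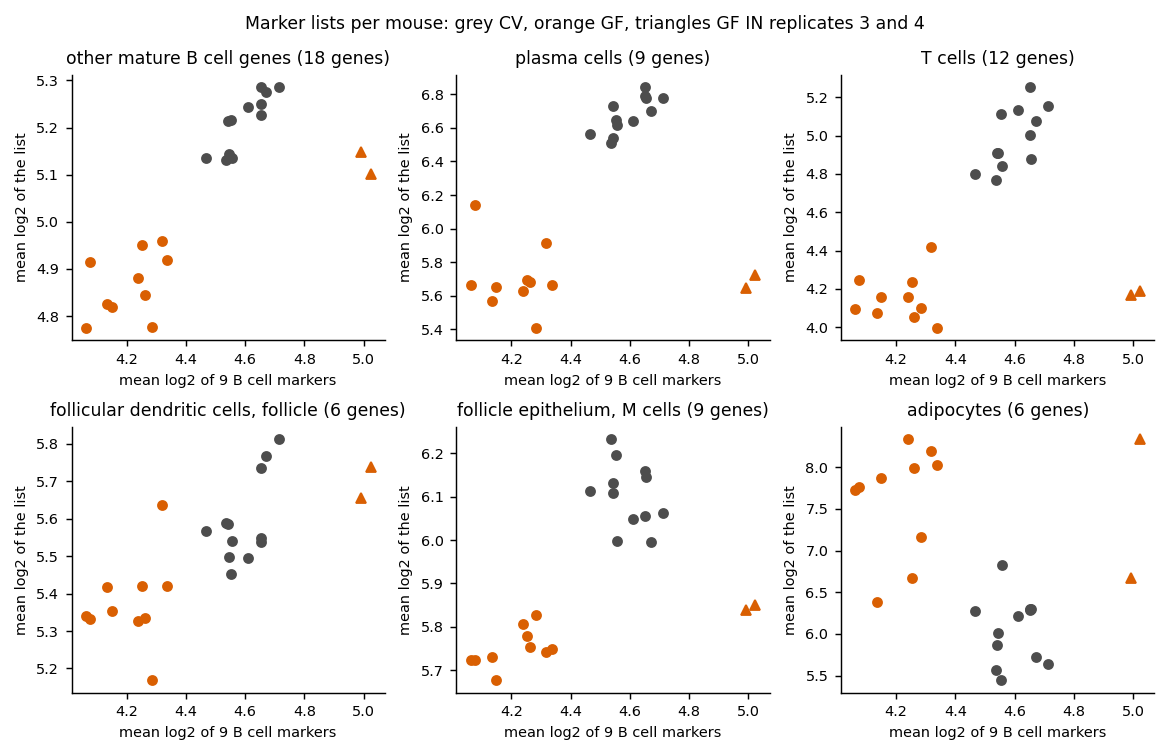
Mean log2 level of 6 gene lists (vertical axes) against the mean of the 9 B cell markers (horizontal axes) for 24 mice, conventional (CV) in grey and germ-free (GF) in orange. Germ-free IN replicates 3 and 4 (triangles) lie to the right of all other mice while their T cell and plasma cell means stay among the germ-free mice.

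Other genes of the B cell programme were also compared by status. Of 18 further mature B cell genes 7 were called lower and 0 higher in germ-free mice over all treatments, with a median of -0.12, against 0.03 for all genes. In this comparison 5.22% of all genes were called lower and 2.99% higher. They included Ciita, 2.45-fold lower, the master regulator of MHC class II genes, Tnfrsf13b (-0.62), the TACI receptor, Cd180 (-0.50) and Cd24a (-0.41), which intestinal epithelium also expresses. Cd79a, the partner of Cd79b, was lower, at -0.77 (SE 0.17). The other 11 genes of the list were not called. Fcrl1 (-0.12), Blk (-0.11), Ebf1 (-0.10), H2-Ob (-0.10), Cd22 (-0.08), Bach2 (-0.05), Fcrla (-0.05), Fcer2a (-0.03) and Cxcr5 (0.02) had intervals that held 0. Vpreb3 stood at -0.35, below the fold of a call. Ralgps2 of the same list went the other way, at 0.36 over all treatments (adjusted p = 6.55e-06 by limma, below the fold of a call), and it was called higher on water (0.40) and after FOS (0.41). Ralgps2 and the other genes without a call are named here after their values were seen. Of 16 genes of B cell receptor signalling 6 were called lower and 0 higher (median -0.25). The members with the smallest p were Pik3ap1 (-1.15), an adaptor to phosphoinositide 3-kinase, Pik3cd (-0.65), Rac2 (-0.92) and Inpp5d (-0.58). Each is also active in other blood cells.

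Of 8 genes of BAFF and APRIL signalling 3 were called lower and 0 higher (median -0.30), against 5.22% of all genes called lower and 2.99% higher. Tnfsf13b, which encodes BAFF itself, fell by 1.00 (SE 0.089), and Tnfrsf17, the BCMA receptor of plasma cells, fell by 1.00 (SE 0.10). Ligand and receptors of the pathway thus included genes with larger differences than that of Tnfrsf13c. Germinal centre B cell genes gave 2 of 8 lower (Fas, -0.76, and Rgs13, -0.42), follicular dendritic cell and follicle genes 2 of 6 (Madcam1, -0.49, and Clu, -0.42), and genes of the follicle-associated epithelium and M cells 3 of 9 (Tnfaip2, -0.83, Pglyrp1, -0.59, and Ccl20, -0.60).

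Markers of other leukocytes moved as well, beside 5.22% of all genes called lower, 2.99% higher and 8.2% in either direction. Plasma cell genes were called lower in 7 of 9 cases (median -0.92), led by Jchain (-2.80), which joins the subunits of secreted immunoglobulin A. T cell genes were called lower in 8 of 12 cases (median -0.51), with Cd3g at -2.43 and Cd3e at -2.10. Macrophage and dendritic cell genes gave 2 of 9 (Csf1r, -0.67, and Itgam, -0.85). The smooth muscle list had 5 of 8 lower (median -0.43) and the adipocyte list 6 of 6 higher (median 1.57), while 0 of 10 enterocyte genes were called. Without germ-free IN replicates 3 and 4 the counts were 7 of 16 for B cell receptor signalling, 4 of 9 for the follicle-associated epithelium and 6 of 8 for smooth muscle, and those of the other 9 lists were the same numbers. Of all 18820 genes 1008 (5.36%) were then called lower and 541 higher. The lists share Pou2af1, Tnfrsf13b, Tnfrsf17 and Fcer2a between them. In germ-free IN against water, where 7 of 9 markers were called higher, 0 of 18 further mature B cell genes were called, with a median of 0.10. The share of all genes called there in either direction was 0.855%. Over the other 11 lists 1 gene was called, Mzb1 of the plasma cells, at -0.59. Without germ-free IN replicates 3 and 4 the further mature B cell genes again gave 0 of 18, with a median of -0.05, against 1.02% of all genes. The other 11 lists then gave 2 genes, both of the plasma cell list.

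Between mice of the same group, the markers varied together in part. Deviations from the group means were correlated over 24 mice for the 36 pairs of markers, and Pearson's r ran from -0.02 to 0.77 with a median of 0.49. Without germ-free IN replicates 3 and 4 the median was 0.08. These mice were picked for values high in several markers together, so lower correlations follow in part from that choice. Ms4a1 and Cr2 went from 0.61 to -0.51 and Pax5 and Cr2 from 0.77 to 0.39. The relation of Cd79b and Bank1 held, with an r of 0.69 over all mice and 0.67 without these 2 or without the 2 mice farthest from the median. Its Spearman's rho was 0.75, and the permutation p was 4.9e-04 for r and 2.6e-04 for rho, or 0.016 and 0.0094 after Benjamini-Hochberg adjustment over the 36 pairs. Bank1 and Cd37 had an r of 0.76 and a rho of 0.70, with permutation p of 9e-04 and 0.0044 (adjusted 0.016 and 0.075), and an r of 0.61 without the 2 mice. No other pair passed an adjusted p under 0.05.

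**Figure D5:**
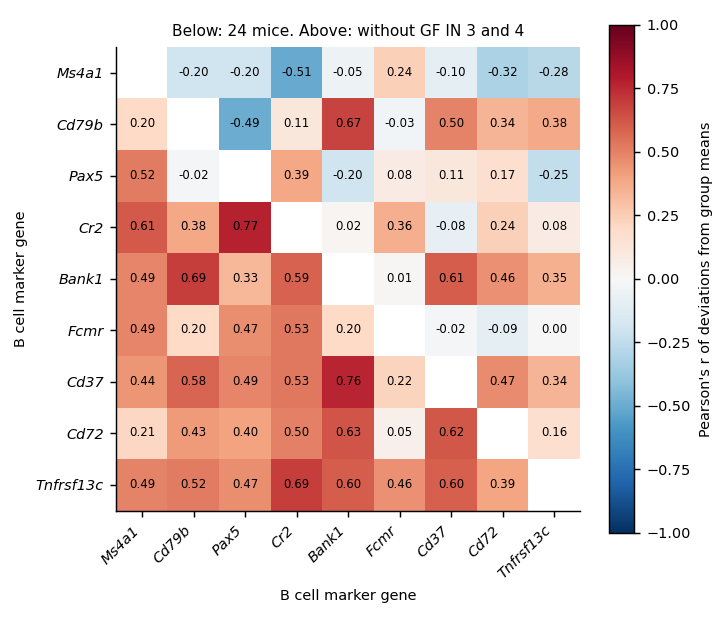
Pearson's r between the 9 markers (both axes) of deviations from group means, over 24 mice below the diagonal and without germ-free IN replicates 3 and 4 above it. Ms4a1 and Cr2 change from 0.61 to -0.51, while Cd79b and Bank1 stay at 0.69 and 0.67.

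The genes outside the 9 markers whose deviations were most like the mean deviation of the markers over 24 mice were Btla, Cic, Cblb, Vmn2r66, Tmem64, Ube2d2a, Ppp3r1, Cd79a, Bcl2a1c and Cxcr4, with r from 0.75 to 0.82. Btla, an inhibitory receptor of lymphocytes, had 3.74, 3.49, 4.50 and 4.55 in the 4 germ-free IN mice. Cd79a had 4.24, 3.93, 5.36 and 5.98. Both were higher in replicates 3 and 4 than in 1 and 2, and without those 2 mice the r of the 10 genes fell to between 0.31 and 0.53. The genes were ranked by r over all 24 mice, so a fall without 2 of them follows in part from the ranking. Vmn2r66 was dim, at a mean log2 value of 1.98.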

How the data were processed

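The deposited log2 expression values of 24 arrays were used, 1 array per mouse. The authors made them by robust multiarray average (RMA), which quantile-normalizes between arrays, so a shift shared by all genes would not be seen. The study's methods name remapped probe sets, but the numbers in the deposited file are the manufacturer's. Of 35556 probe sets, 21218 have 1 symbol in the platform annotation, 1881 several and 12457 none. Sets with 1 symbol were kept, the brightest per gene, which left 18820 genes.

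The 6 group means were fitted in limma 3.58.1 (R 4.3.3; eBayes with trend), and p-values were adjusted by Benjamini-Hochberg over all genes. A call is p under 0.01 and a fold change over 1.3. Exact permutation tests over mice (70 assignments of 4 against 4, or 343000 within treatments) are two-sided. Correlations used permutation tests in Python 3.11.15. The fit was tested on simulated data. The number of arrays limits the precision. The labels give each mouse a number within its group.

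The members and lists were chosen with earlier results of these data known. Named are the 9 members, from each list up to 4 called genes with the smallest p, and the 10 genes most like the members. Genes without a call among the further mature B cell genes are named too. List genes that lack an unshared probe set were not analysed here. Promoters are from RefSeq (GRCm38.p6), and 7 of 9 members matched. Gene positions are those of the same assembly, and the position of probe sets within genes is not given in the sources used here. Alternatives were another prior, the intensity-based moderated t of the study, fits on the groups compared alone, cyclic loess, the mean of all probe sets, a filter on dim genes, the replicate block, leaving out each mouse and an adjusted threshold.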

Additional observations from a re-analysis of the deposited data

Results flagged for a closer look

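In 3 of 54 sets of 4 mice (9 markers in 6 groups), a mouse lay far from the others of its group, with a gap to the nearest mouse that took up more of the whole range than the 95% critical value for 4 mice. Chance gives this in about 1 of 20 sets. Germ-free FOS replicate 4 was low in Cd79b (0.836 of the range), conventional IN replicate 1 in Bank1 (0.905) and conventional IN replicate 3 in Cd72 (0.87). The change of Cd79b after IN differed between germ-free and conventional mice by 0.63 on the log2 scale in a test of the interaction by limma. Its adjusted p was 1.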

How the results depend on the processing

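With a prior that ignores intensity, the moderated t of the study, cyclic loess or the mean of all probe sets, no count of called markers moved by over 1.5 times. Each marker has 1 probe set, so the mean of all probe sets kept its values and could alter only the prior shared with other genes. Fitting only the arrays compared gave 4 calls for germ-free IN against water and 3 for IN against FOS. Leaving out genes dimmer than the median kept 3 markers, with 2 calls for status on water, 1 for germ-free IN against water, 1 for IN against FOS and 0 for the interaction with IN. At an adjusted p under 0.05 these last 3 counts were 0, 0 and 0, as they were without germ-free IN replicates 3 and 4. Leaving out 1 mouse gave 3 to 4 calls for status over all treatments, 3 to 4 on water, 2 to 4 after FOS and 1 to 4 after IN. Of all genes 8.09% to 8.54%, 7.93% to 9.04%, 8.04% to 9.21% and 8.88% to 10% were called in these fits. The range was 2 to 8 for germ-free IN against water, 2 to 7 for IN against FOS, 0 to 5 for the interaction with IN and 0 to 0 in the remaining comparisons. Here the shares of all genes were 0.616% to 1.52%, 0.978% to 2.42%, 0.388% to 0.781% and 0.266% to 1.4%. Replicate numbers did not pair the mice (correlations of same-numbered deviations from -0.135 to 0.182), and with the replicate block the counts were 3, 4, 3 and 3 for status over all treatments, on water, after FOS and after IN, then 7, 5 and 1 for germ-free IN against water, IN against FOS and the interaction. Shares of all genes were not counted for the fits on the arrays compared, the filter on dim genes or the replicate block. Those counts therefore lack a background.

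Signs turned as follows. Over all treatments these were Fcmr, 0.0082 without conventional water replicate 2 and 0.0097 without germ-free IN replicate 1, Ms4a1, 0.0557 without germ-free IN replicate 2, and Cr2, -6e-04 and -0.0116 without germ-free IN replicates 3 and 4 in turn. Over all omissions of 1 mouse Fcmr ran from -0.095 to 0.0097, Ms4a1 from -0.1217 to 0.0557 and Cr2 from -0.0116 to 0.1161. After IN these were Tnfrsf13c, 0.0159 without conventional IN replicate 2, 0.0997 and 0.139 without germ-free IN replicates 1 and 2, and Bank1, -0.0639 without replicate 4. Here Tnfrsf13c ran from -0.2752 to 0.139 and Bank1 from -0.0639 to 0.2101. Without both germ-free IN replicates 3 and 4, Pax5 (-0.0133) and Cr2 (-0.1182) turned over all treatments, and Ms4a1 (-0.2879, from 0.3657), Cr2 (-0.0688, from 0.4355) and Bank1 (-0.2179, from 0.0936) after IN. The causes were not tested. Of 348 planned settings for single markers that left no mouse out, 326 kept direction and call, 20 lost the call and 2 gained it. The 348 include those with the mean of all probe sets, where the values of the markers do not change. The number of mice and the dimness of the probe sets limit what could be called.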
